A study of Saccharomyces cerevisiae with 4 samples.

Results

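The ubiquitin proteases described here are 10 genes of Saccharomyces cerevisiae, UBP1, UBP2, UBP3, UBP5, UBP6, UBP8, UBP9, UBP13, UBP14 and UBP15, found by their systematic names in a table of gene expression. Of the 10, 9 had 1 tested gene model each, among 5329 genes with a ratio, and UBP14 (YBR058C) was not analysed here. The family was chosen with results of the same table known, because UBP9 lies in a segment of raised genes and UBP15 lies beside the deleted ADH2. The levels and ratios of the members are therefore a description.

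Ubiquitin is a small protein that is attached to other proteins as a mark for degradation, sorting or regulation. It is put on by a relay of an activating enzyme (E1), a conjugating enzyme (E2) and a ligase (E3), and it is taken off by deubiquitinases. The UBP genes encode the largest class of deubiquitinases in yeast, cysteine proteases that share a catalytic domain and differ in the partners and substrates around it.

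The minimal glycolysis strain IMX372 was set against the prototrophic reference strain CEN.PK113-7D. Both are MATa and carry MAL2-8c and SUC2. Per its genotype label, IMX372 lacks 13 minor paralogs, of which GLK1, HXK1, TDH1, TDH2, GPM2, GPM3, ENO1 and PYK2 belong to glycolysis and PDC5, PDC6, ADH2, ADH4 and ADH5 to alcoholic fermentation. Mutant alleles of URA3, HIS3 and LEU2 are also part of IMX372, as are the markers SpHis5 in the place of GLK1, KlLEU2 in that of HXK1 and KlURA3 in that of TDH1, so effects of the markers and of the deletions cannot be told apart. Each strain had 2 libraries from aerobic bioreactor batches on 20 g/L glucose at pH 5 and 30 °C, sampled in mid-exponential phase. The authors pooled the libraries into 1 FPKM per strain (fragments counted relative to the length of the gene model and the size of the library). No SD can be given, the read depth behind a value is unknown, and the q-values quoted are those of the authors' Cuffdiff comparison. GPM3, the 1 deleted gene of the 13 that the authors tested, was listed at 0 in IMX372 against 57.7 FPKM in the reference. A 0 stands in both strains, the reference included, for 10 of the other deleted genes, which the authors did not test, so those rows check nothing, and PDC5 and ADH2 were not analysed here.

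UBP9 was higher and UBP15 lower in the minimal glycolysis strain, and the other 7 measured members had nearly the same value in both strains. UBP9 had 26.8 FPKM in the minimal glycolysis strain and 16.3 FPKM in the reference, a level 1.65-fold higher (log2 ratio 0.72), with q = 0.00735 in the authors' deposited table. UBP15 had 8.62 FPKM in the minimal glycolysis strain and 13.9 FPKM in the reference, or 62.0% of the reference level (log2 ratio -0.69), with q = 0.0194 in the authors' deposited table. The log2 ratios of the other 7 lay between -0.04 for UBP13 and 0.11 for UBP6. In bulk libraries, fewer cells with a transcript and less transcript per cell cannot be told apart.

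A gene was called different where the authors' q was at most 0.05, which held for 2 of the 9 members, 1 in each direction. Over all 5437 tested models, 0.791% were called, 0.515% as higher and 0.276% as lower in the minimal glycolysis strain. Since the family was chosen on this comparison, nothing is read from the members' count. The median log2 ratio was 0.01 over the 9 members and 0.01 over all genes. The median size of the log2 ratio, without its sign, was 0.03 over the members and 0.10 over all genes. The smallest change that the authors called in the whole table was 1.57-fold, so smaller changes of the other 7 members could have gone uncalled.

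**Figure D1:**
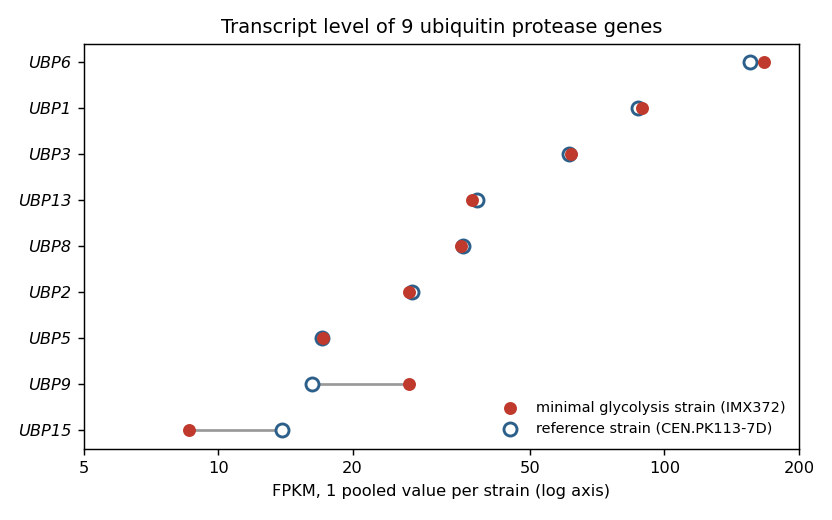
Level of the 9 measured UBP genes in FPKM on a log axis, with filled points for the minimal glycolysis strain, open points for the reference and a line joining the 2 pooled values of a gene. The points of UBP9 and UBP15 are apart in opposite directions, at 26.8 against 16.3 FPKM and 8.62 against 13.9 FPKM, while those of the other 7 genes nearly coincide.

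The highest level belonged to UBP6, whose product sits on the proteasome and removes ubiquitin from proteins that are about to be degraded. UBP6 had 167 FPKM in the minimal glycolysis strain and 155 FPKM in the reference (log2 ratio 0.11, p = 0.507 in the authors' deposited table). This was the smallest p among the 7 uncalled members. UBP6 alone held 35.6% of the summed FPKM of the 9 members in the minimal glycolysis strain and 34.4% in the reference.

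UBP1, which encodes a protease that cuts ubiquitin fusion proteins, came next with 88.9 FPKM in the minimal glycolysis strain and 87.0 FPKM in the reference. UBP3 acts with the cofactor Bre5 on a coat protein of transport vesicles and in the turnover of ribosomes, and it had 61.7 FPKM in the minimal glycolysis strain and 61.1 FPKM in the reference. The log2 ratio was 0.03 for UBP1 and 0.01 for UBP3. Both genes thus stood at close to the same level in the 2 strains.

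UBP8 encodes the protease of the SAGA coactivator complex that removes ubiquitin from histone H2B. Its level was 35.1 FPKM in the minimal glycolysis strain and 35.4 FPKM in the reference, at a log2 ratio of -0.02. UBP2, whose product opposes the ligase Rsp5, had 26.7 FPKM in the minimal glycolysis strain and 27.1 FPKM in the reference, also at -0.02. UBP8 lies on the same chromosome as UBP15, 157 kb to its left in the file's coordinates, and its ratio was near 0.

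The order of the levels was the same in both strains for the 5 most abundant members, UBP6, UBP1, UBP3, UBP13 and UBP8. Below them, UBP9 stood in rank 6 in the minimal glycolysis strain and in rank 8 in the reference, where UBP2 and UBP5 were above it. UBP9 and UBP2 were close in the minimal glycolysis strain, at 26.8 and 26.7 FPKM, and no spread is known by which to separate them. UBP15 was the lowest member in both strains. The distance between the highest and the lowest member was 19.4-fold in the minimal glycolysis strain and 11.2-fold in the reference. Summed over the 9 members, the family had 469 FPKM in the minimal glycolysis strain and 451 FPKM in the reference, a ratio of 1.04. The sum over all genes with a ratio was also higher in the minimal glycolysis strain, at 2.60e+06 against 2.50e+06 FPKM. Nothing particular to the family is thus read from its sum.

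UBP9 and UBP13 are a pair of paralogs from the whole genome duplication of yeast, and both proteins work with the adaptor Duf1. UBP13 had 37.0 FPKM in the minimal glycolysis strain and 37.9 FPKM in the reference, at a log2 ratio of -0.04. The level of UBP9 was 0.726 of that of UBP13 in the minimal glycolysis strain and 0.428 of it in the reference. The sum of the pair was 63.8 FPKM in the minimal glycolysis strain and 54.2 FPKM in the reference. The paralogs thus differed in their ratios, and UBP13 was the more abundant of the pair in both strains.

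Reads of 51 bases could in principle be shared between such paralogs. In the R64 genome of the strain S288C, 0 of the 2215 windows of 51 bases in UBP9 and 0 of the 2194 in UBP13 occur elsewhere in the genome, and the longest identical run between the genes is 11 bases. The same count was 0 for each of the other members, UBP15 among them with 3643 windows. R64 is not the assembly on which the authors' models lie, so this describes the S288C copies of the genes.

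UBP5 and DOA4 are another pair of this kind, of which DOA4 is not among the 10 genes and encodes the protease that recycles ubiquitin from membrane proteins on their way to the vacuole. UBP5 had 17.2 FPKM in the minimal glycolysis strain and 17.0 FPKM in the reference. DOA4 had 17.1 FPKM in the minimal glycolysis strain and 16.9 FPKM in the reference. The 2 genes of this pair had almost equal levels in either strain.

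UBP9 (YER098W) lies on chromosome 5 at 353559 to 355823 of the CEN.PK113-7D assembly, as the fourth of a run of 9 consecutive tested models that the authors all called higher. The run extends from 346957 to 365521, which is 18.6 kb. By the pooled values UBP9 had the smallest rise of the run, at 1.65-fold. The median of the other 8 was 1.12 on the log2 scale, and the largest rise was 2.79-fold for RTT105. The neighbours of UBP9 in the table are SHC1, for an activator of chitin synthase, at a gap of 2106 bases and PRS2, a phosphoribosyl pyrophosphate synthetase gene, at a gap of 372 bases.

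SHC1, to the left, had 10.8 FPKM in the minimal glycolysis strain and 5.57 FPKM in the reference, and rose 1.93-fold. PRS2, to the right, had 252 FPKM in the minimal glycolysis strain and 107 FPKM in the reference, and rose 2.35-fold. Both flanking genes thus rose by more than UBP9 in the pooled values, and no spread is known by which to separate these rises. The q of SHC1 and PRS2 was 0.00735 in the authors' deposited table, the smallest value that table holds, which UBP9 shares. In the authors' Cuffdiff comparison 37 tested models had the smallest p, 5e-05, so a shared q does not mean equal evidence.

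The run holds further genes of the ubiquitin and proteasome system. UBC6, which encodes an E2 of the endoplasmic reticulum membrane, had 432 FPKM in the minimal glycolysis strain and 202 FPKM in the reference, and rose 2.13-fold. PUP3, a gene for a subunit of the proteasome core, had 1541 FPKM in the minimal glycolysis strain and 701 FPKM in the reference, and rose 2.20-fold. Both had q = 0.00735 in the authors' deposited table. SSA4, an inducible Hsp70 chaperone gene, rose 1.98-fold and AST2 rose 2.03-fold.

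UBP9 was also the longest model of the run, with 2265 coding bases. The 4 longest models, UBP9, SSA4, SHC1 and AST2, were the 4 with the smallest rises, at most 2.03-fold, and the other 5 rose at least 2.13-fold. Across all genes, too, long models had lower ratios than short ones, as described below, and the part of length in the order within the run was not tested.

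The run was ended at the first tested model on each side that was not called, so the models next to its ends are uncalled by construction. Outside the run the ratios were lower. AIM11, the last tested model to its left, had a log2 ratio of 0.41 (p = 0.0203 and not called in the authors' deposited table), and NUP157, the first to its right, had -0.05. The 20 tested models flanking the run, 10 on each side, had a median log2 ratio of -0.04. Of them 0 were called, beside 0.791% of all tested models. UBP5 and UBP3 lie further along chromosome 5, 100 kb and 112 kb to the right of UBP9, and had log2 ratios of 0.01 each. The raised values on this chromosome thus included UBP9 and left out the other 2 members there.

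UBP15 (YMR304W) encodes a protease related to human USP7 that acts on the cyclin Clb5 and on the peroxisomal import receptor Pex5. It lies on chromosome 13 at 869505 to 873197 of the CEN.PK113-7D assembly. Its nearest tested models are YME2 to the left, at 2378 bases, and SCW10 to the right, at 399 bases. In the R64 annotation ADH2 is the only gene between YME2 and UBP15. By the last letters of their systematic names, YMR303C and YMR304W, ADH2 and UBP15 are read in opposite directions, away from each other, so that their start sites face the same intergenic stretch. ADH2 itself was not analysed here.

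The genes on either side of UBP15 did not share its lower level. YME2, a mitochondrial inner membrane protein gene, had 43.9 FPKM in the minimal glycolysis strain and 46.4 FPKM in the reference, at a log2 ratio of -0.08. SCW10, a gene for a glucanase-like cell wall protein, had 433 FPKM in the minimal glycolysis strain and 392 FPKM in the reference, at 0.14. Of the 20 tested models around UBP15, 10 on each side, 0 were called, beside 0.791% of all tested models. The rule that ended the run of UBP9 was used here too, so the model next to UBP15 on each side is uncalled by construction. The log2 ratios of the 20 models ran from -0.18 to 0.35 with a median of -0.02. UBP15 at -0.69 was below all 20. The part of the ADH2 deletion in this value was not tested, since the table holds no strain that lacks ADH2 alone.

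**Figure D2:**
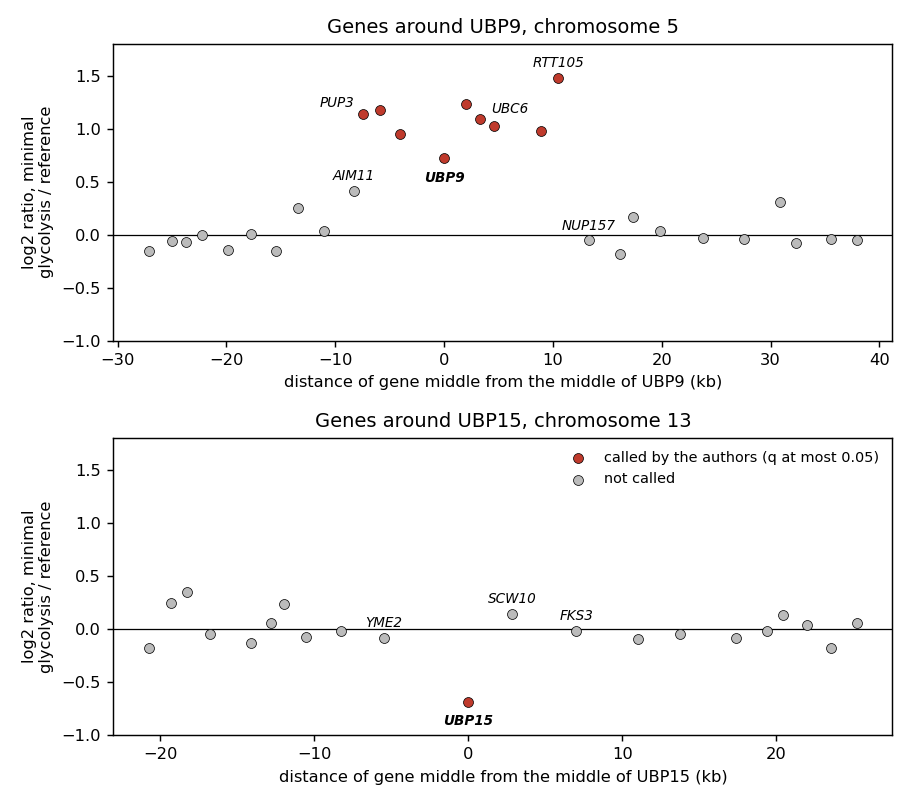
Log2 ratio of minimal glycolysis over reference for tested genes around UBP9 (upper panel) and UBP15 (lower panel), against the distance of each gene's middle from that of the member in kb. Red points were called by the authors and grey points were not. UBP9 is the lowest of 9 red points in a row, with AIM11 at 0.41 at their edge, and UBP15 is a single red point at -0.69 among grey ones between -0.18 and 0.35.

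Around the other members, no tested neighbour was called. Over all tested models 0.791% were called, so nothing is read from this count. Of the 18 nearest tested neighbours of the 9 members, the 2 called ones were SHC1 and PRS2, and the remaining 16 had log2 ratios between -0.29 and 0.16. The lowest was FTR1, the iron permease gene beside UBP5, with 782 FPKM in the minimal glycolysis strain and 958 FPKM in the reference, and the highest was LEO1, a transcription elongation factor gene beside UBP2, with 113 FPKM in the minimal glycolysis strain and 101 FPKM in the reference. The gaps between members and neighbours were 151 to 2378 bases. Per the labels the libraries were made from cDNA with a DNA kit and no step that keeps the strand is described, so antisense transcripts over a member could add to its value.

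The coding lengths of the members ran from 1416 bases for UBP8 to 3819 bases for UBP2. All 9 were longer than the gene median of 1251 bases. The 6 other proteases of the class, described below, were also long, with a median coding length of 2580 bases. Among all genes the median log2 ratio was 0.07 in the 10% with the shortest coding lengths and -0.08 in the 10% with the longest. When all genes were split into 10 bins of coding length and the median of its own bin was taken off, UBP9 was at 0.75 and UBP15 at -0.61. On the same scale the other 7 lay between -0.03 for UBP8 and 0.12 for UBP6. The bin medians ran only from -0.08 to 0.08. Taking them off could thus not remove ratios of the size of those of UBP9 and UBP15, and nothing is read from it.

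**Figure D3:**
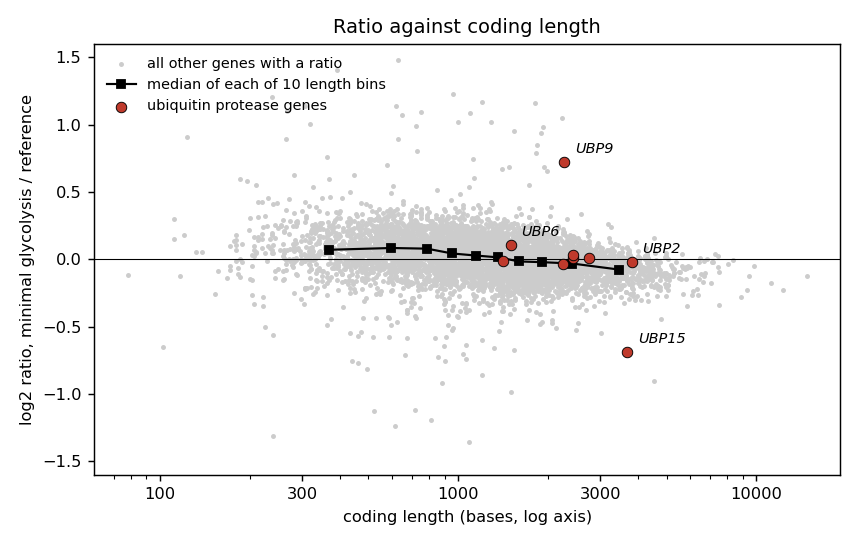
Log2 ratio of minimal glycolysis over reference against coding length in bases on a log axis, for all genes with a ratio (grey), the 9 UBP genes (red) and the median of each of 10 bins of genes by length (black squares). The black line falls with length, 7 UBP genes lie near it, and UBP9 and UBP15 lie far above and below it. Not drawn are 4 genes beyond 1.6 in either direction.

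Levels also differed among the members. UBP15 was at percentile 5.64 of all genes by FPKM in the minimal glycolysis strain and at percentile 9.77 in the reference. UBP9 was at percentile 23.0 in the minimal glycolysis strain and at percentile 11.9 in the reference. UBP5, the other member with a low level, was at percentile 13.4 in the minimal glycolysis strain and at percentile 12.8 in the reference. By their level in the reference, the 2 called members thus came from the low end of the family. UBP5 had a level there similar to that of UBP9 and a log2 ratio of 0.01. In the minimal glycolysis strain UBP9 stood in rank 6 of the 9 members.

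The 6 other proteases of the same class, DOA4, UBP7, UBP10, UBP11, UBP12 and UBP16, held 0 called genes and had a median log2 ratio of -0.04. UBP11, the paralog of UBP7, had the lowest ratio, with 11.3 FPKM in the minimal glycolysis strain and 13.8 FPKM in the reference (log2 ratio -0.28, p = 0.131 in the authors' deposited table). UBP10, which encodes a nuclear protease that acts in gene silencing, had 77.2 FPKM in the minimal glycolysis strain and 80.1 FPKM in the reference, at -0.05. UBP7 had 10.1 FPKM in the minimal glycolysis strain and 10.3 FPKM in the reference, at -0.04. The ratios of DOA4, UBP12 and UBP16 lay between -0.03 and 0.02. Of the 15 measured proteases of the class in all, 2 were called, UBP9 and UBP15, on which the choice of the family rested. Over all tested models 0.791% were called, and because of that choice nothing is read from the count of 2.

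Of 5 measured deubiquitinases of other classes, 0 were called, beside 0.791% of all tested models. In so short a list such a share leaves few calls or none, so nothing is read from this count. OTU2, of the OTU class, had 72.2 FPKM in the minimal glycolysis strain and 58.3 FPKM in the reference, at a log2 ratio of 0.31 (p = 0.0734 in the authors' deposited table). RPN11, the metalloprotease of the proteasome lid, had 395 FPKM in the minimal glycolysis strain and 353 FPKM in the reference, at 0.16.

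Of the 9 partners and regulators of UBP proteins, 0 were called, beside 0.791% of all tested models. Their ratios were above 0 for 4 and below 0 for 5. BRE5, for the cofactor of Ubp3, had 131 FPKM in the minimal glycolysis strain and 150 FPKM in the reference (log2 ratio -0.20, p = 0.230 in the authors' deposited table). DUF1, for the adaptor of Ubp9 and Ubp13, had 18.1 FPKM in the minimal glycolysis strain and 20.4 FPKM in the reference, at -0.17. UBP9 was thus called higher while the gene of its adaptor had a ratio below 0 that was not called. SGF11, SGF73 and SUS1, whose products hold Ubp8 in SAGA, were at -0.01, 0.14 and 0.15. RUP1, which links Ubp2 to Rsp5, was at 0.01, and RPN1, the proteasome subunit that binds Ubp6, at 0.02.

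Among the sources of ubiquitin and its E1, 4 of the 5 listed genes had a ratio. Of these 0 were called, beside 0.791% of all tested models. RPL40A, a ubiquitin fusion gene, had 3733 FPKM in the minimal glycolysis strain and 3248 FPKM in the reference, at a log2 ratio of 0.20. RPS31, the other kind of fusion gene, was at 0.18. RPL40B, the near-identical copy of RPL40A, was not analysed here, and the value of RPL40A is uncertain, since reads of such copies may be assigned to either. UBI4, the polyubiquitin gene, was at 0.12 and UBA1, the E1 gene, at -0.16. Less the median of each gene's length bin, RPL40A was at 0.12, RPS31 at 0.11, UBI4 at 0.05 and UBA1 at -0.08. The median of the list was 0.15 without this correction and 0.08 with it.

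Among all 5329 genes, 2823 had log2 ratios above 0 and 2506 below 0, and 40 were called. Of 12 E2 genes, 1 was called, UBC6 in the run with UBP9, and 10 of the 12 had ratios above 0, with a median of 0.11. Of 14 E3 genes, 0 were called and 12 had ratios below 0, with a median of -0.10. RKR1 and UBR2, at log2 ratios of -0.22 each, had the lowest E3 values, with p = 0.179 and p = 0.284 in the authors' deposited table. UBR2 had a low level, 2.92 FPKM in the minimal glycolysis strain and 3.40 FPKM in the reference, from the longest tested of its 2 models. The E2 genes are short, with a median coding length of 547 bases, and the E3 genes long, with 3120 bases. Less the median of each gene's length bin, the medians were 0.03 for the E2 genes and -0.05 for the E3 genes. The part of length in these list medians was not otherwise tested. Over all 50 measured genes of these lists outside the 10, the median log2 ratio was 0.002.

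**Figure D4:**
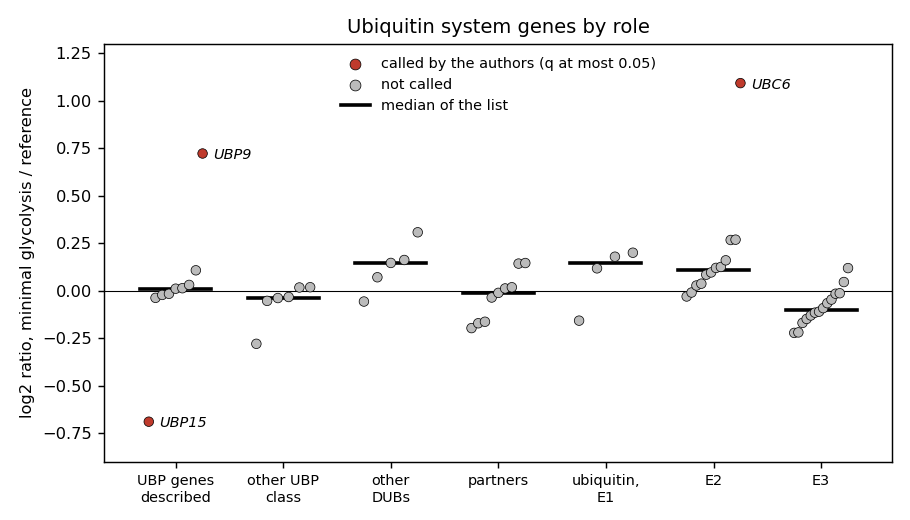
Log2 ratio of minimal glycolysis over reference for the 9 measured UBP genes and 50 other genes of the ubiquitin system, grouped by role, with 1 point per gene and a bar at each list's median. The 3 red points, UBP15 at -0.69, UBP9 at 0.72 and UBC6 at 1.09, are the genes the authors called, and the bars run from -0.10 for E3 to 0.15 for ubiquitin and E1.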

How the data were processed

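RNA sequencing libraries of the minimal glycolysis strain (2) and the reference (2) were grouped by the strain label. The labels do not say which of the 4 cultivations per strain each library came from. The submitters' processing notes name Cuffdiff, Cufflinks, SAMtools 0.1.7-r510, BWA 0.5.9-r16 and CASAVA 1.8.2 without their roles, and the labels name CEN.PK113-7D as the genome. The authors' deposited table holds FPKM values pooled per strain, the authors' log2 ratio, a test statistic (a score) and the p-value and q-value of the authors' comparison, in 1 column each. The number of unused columns with per-sample values was 0. What the word masked in the sample names of the file headers refers to is not given in the sources used here.

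The log2 ratio was recomputed as minimal glycolysis over reference without a pseudocount, which departs from the authors' value by at most 1.31e-05. Of the 5472 models, 5437 were tested by the authors, and the longest tested model was kept per systematic name, giving 5329 genes with a ratio. Starts in the file, which count from 0, were moved to count from 1. Model lengths are mostly coding lengths, since 97.2% are multiples of 3. Names come from the R64 annotation, which matched 5434 models. Neighbours, the run and its flanks were taken from the order of the tested models in the file's coordinates. R64 was used to see which genes lie between a member and its neighbours. Shared windows of 51 bases were counted in R64 on both strands. No sequence is shown, since no genome of the authors' assembly was used here.

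The 10 genes and the other ubiquitin lists were chosen with earlier results of these data known. Values are given for all members, the nearest tested neighbours that stand apart, the run around UBP9 and, of each other list, its called genes or the 2 whose log2 ratios are largest in size, with further genes named for their role after their values were seen. Of the genes selected, 2 are not reported here. No test across libraries was possible on pooled values. Calculations used Python 3.11.15, pandas 2.3.3 and numpy 2.4.6, and the adjustment and the length bins were tested on simulated data.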

Additional observations from a re-analysis of the deposited data

How the results depend on the processing

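Of the 2 members called at a q of 0.05, a q of 0.01 left 1, UBP9, and a change of at least 2-fold left 0. Recomputed q-values, over all tested models or over those that reach 10 FPKM in a strain, gave 2. Alternatives chosen after seeing the data gave 1 without the run on chromosome 5, which leaves out UBP9 by construction, and 2 with the 6 other proteases of the class. At a q of 0.05 the share called over all tested models was 0.791%. Shares under the other settings are not given here, and the family was chosen on this comparison, so nothing is read from these counts. The members' median log2 ratio of 0.01 ranged from -0.02 with those 6 to 0.04 with the median of the length bin taken off. With 1 or 5 FPKM added, centring on all genes or that correction, the log2 ratio of UBP9 ranged from 0.58 to 0.75 and that of UBP15 from -0.70 to -0.47, and of 36 such values of all members, 2 of uncalled ones changed sign. The 10 models nearest the run, 5 on each side, had a median of 0.02 in place of -0.04, with 0 called. No paired analysis was possible because the table holds 1 pooled value per strain, and for the same reason no library could be left out. Depth per gene is unknown. The log2 ratio divided by the authors' deposited test statistic was 0.18 to 0.22 over the 9 members, which would be a rough scale of error if that statistic is a ratio to its error, a definition not given in the sources used here.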

Other observations

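By a rule of likeness over the log2 FPKM of the 2 strains, which measures level and ratio alone, the 3 genes nearest to UBP15 were IGD1, YCL001W-A and VMR1, at distances of 0.11, 0.14 and 0.22. IGD1, an inhibitor of glycogen debranching, had 9.29 FPKM in the minimal glycolysis strain and 13.8 FPKM in the reference, with p = 0.0177 in the authors' deposited table, and was not called. VMR1, a vacuolar transporter gene of the multidrug resistance family, had 8.79 FPKM in the minimal glycolysis strain and 12.0 FPKM in the reference, with p = 0.0093 in the authors' deposited table, and was not called either. The 3 genes nearest to UBP9 were YDL211C, MDH2 and YNL234W, at distances of 0.24, 0.25 and 0.30. MDH2, the cytosolic malate dehydrogenase gene, had 28.9 FPKM in the minimal glycolysis strain and 19.0 FPKM in the reference (log2 ratio 0.60), with q = 0.121 in the authors' deposited table. None of these 6 genes was called, and 2 values per gene say nothing of shared control.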
